A study of Mus musculus with 4 samples.

Results

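The genes examined were 4 that make, load, take up or break down acetylcholine and its choline, Chat, Slc18a3, Slc5a7 and Ache, and Slc17a8, a glutamate transporter of neurons that use more than 1 transmitter. They were taken by name, 5 of the 21938 protein-coding genes of the mouse annotation. No rule on measured values was used, but earlier results of these data were known. Chromatin accessibility was measured in single nuclei with the 10x Genomics assay, in 2 libraries from cortex and 2 from hippocampus. All mice had the genotype Dlx6aCre;Sun1/sfGFP and were at postnatal day 30, and no other genotype, treatment or age was compared. Dlx6aCre drives Cre recombinase in forebrain inhibitory neurons, Sun1/sfGFP labels the nuclear envelope with green fluorescence, and nuclei positive for GFP and the DNA dye DAPI had been sorted. How many animals went into a library is not given in the sources used here, so the spread between libraries may be technical. Accessibility at a gene was the number of transposase cut sites in the library's own peaks that overlapped the gene or the 2 kb before its start, scaled to the library total as CPM, the cut sites per 1000000 in that library. Because cut sites were counted only inside peaks called in each library separately, a gene with no peak has no measured value, and it is called a gene without a peak rather than a closed gene.

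Chat encodes choline acetyltransferase, which makes acetylcholine. Slc18a3 encodes the vesicular acetylcholine transporter and lies inside an intron of Chat, so that both genes sit at a single locus. Slc5a7 encodes the high-affinity choline transporter that returns choline to the terminal, and Ache encodes acetylcholinesterase, which breaks acetylcholine down. Slc17a8 encodes VGLUT3, a vesicular glutamate transporter found in neurons that also use another transmitter, among them GABAergic basket cells containing cholecystokinin (Cck). In the cortex, a group of interneurons that express vasoactive intestinal peptide (Vip) and often calretinin (Calb2) is known to express Chat.

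The sequences below are from peaks on which the results turn, read from the GRCm38 genome on the minus strand, 5′ to 3′. None of them overlapped an exon of Chat, Slc18a3, Slc17a8, Ache or Ufsp1, and exons of other genes were not checked. The first lies directly upstream of the Slc18a3 start, in a peak of cortex replicate 1 whose level differed between nuclei with and without a Vip cut site. The second lies directly upstream of the Slc17a8 start in a peak of the same library. The Chat intron sequences are the central 300 bases of the regions that hippocampus had in both libraries, and the last is the centre of the peak upstream of Chat that held the Slc18a3 cut sites of hippocampus replicate 1. Capitals mark a match to a searched motif.
Slc18a3 upstream, chr14:32464851-32465022: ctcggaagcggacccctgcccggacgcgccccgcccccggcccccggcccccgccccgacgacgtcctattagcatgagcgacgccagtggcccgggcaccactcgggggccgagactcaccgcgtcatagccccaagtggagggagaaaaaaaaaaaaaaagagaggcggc
Slc17a8 upstream, chr10:89621254-89621526: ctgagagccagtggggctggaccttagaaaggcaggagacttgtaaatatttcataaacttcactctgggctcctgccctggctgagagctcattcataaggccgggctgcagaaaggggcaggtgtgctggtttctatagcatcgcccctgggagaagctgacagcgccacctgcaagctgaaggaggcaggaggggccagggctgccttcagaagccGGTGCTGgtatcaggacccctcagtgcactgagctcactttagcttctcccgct
Chat intron at 26 kb, chr14:32439788-32440087: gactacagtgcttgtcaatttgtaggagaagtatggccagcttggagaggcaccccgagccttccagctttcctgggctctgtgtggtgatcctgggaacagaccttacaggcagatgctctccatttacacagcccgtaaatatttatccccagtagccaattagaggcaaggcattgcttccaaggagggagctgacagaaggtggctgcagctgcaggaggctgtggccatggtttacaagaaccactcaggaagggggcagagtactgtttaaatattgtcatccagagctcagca
Chat intron at 41 kb, chr14:32424945-32425244: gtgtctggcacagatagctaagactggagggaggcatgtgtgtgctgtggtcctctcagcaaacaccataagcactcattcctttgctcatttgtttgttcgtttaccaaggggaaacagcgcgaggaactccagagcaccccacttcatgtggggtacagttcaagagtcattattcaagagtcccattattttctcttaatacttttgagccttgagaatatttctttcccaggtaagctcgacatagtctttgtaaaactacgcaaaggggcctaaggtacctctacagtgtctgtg
Chat upstream, chr14:32466240-32466539: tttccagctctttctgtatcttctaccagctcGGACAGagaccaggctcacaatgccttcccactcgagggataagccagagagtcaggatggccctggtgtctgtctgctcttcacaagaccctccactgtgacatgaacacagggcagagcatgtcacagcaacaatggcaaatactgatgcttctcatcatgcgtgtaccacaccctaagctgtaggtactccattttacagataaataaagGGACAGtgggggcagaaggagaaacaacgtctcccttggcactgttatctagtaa

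The motifs searched on both strands were GGACAG and CAGCACC, the parts of the element bound by the repressor REST, and the core letters TAATTA of homeodomain sites, TGANTCA of AP-1 sites and TGACGTCA of CREB sites. The Slc17a8 window held 1 match to CAGCACC, on the opposite strand and printed there as GGTGCTG, where 6.53% of the 146197 merged peak regions of at least that length hold it in their central 273 bases. The bases upstream of Slc18a3 had a GC content of 69.2%, against 57.5% upstream of Slc17a8, 51.7% in the Chat intron at 26 kb and 45.7% at 41 kb. No searched motif was found in the Slc18a3 window of 172 bases, where GGACAG occurs in 13.2% of 161990 regions and CAGCACC in 4.22%. Neither Chat intron window held a searched motif. The window upstream of Chat held 2 matches to GGACAG and none to the other motifs, and 22.04% of 141023 regions hold GGACAG in their central 300 bases.

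The libraries held 2355 to 5576 nuclei, 15306 in all, and 32005984 to 117290059 cut sites in 61965 to 157220 peaks. Cortex replicate 1 stood apart, with a median of 47236 cut sites per nucleus against 7352 to 14917 in the other 3 libraries, and cortex replicate 2 had the fewest peaks. Between 11 and 47 barcodes were shared by a pair of libraries, at most 1.12% of either. Of 7 genes that mark GABAergic neurons, 7 had cut sites in every library, with a summed level of 67.6 to 115 CPM per kb. Of 6 markers of forebrain cholinergic neurons, 2 to 5 had cut sites, with a sum of 2.66 to 3.89 CPM per kb. Zic4 had no peak in any library, and Lhx8 and Isl1, which define such neurons, had none in cortex replicate 2 or hippocampus replicate 2. Isl1 had none in hippocampus replicate 1 either.

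The 5 genes ranged from widely accessible to without a peak. Ache was high everywhere, Chat was low and present in all 4 libraries, Slc18a3 and Slc17a8 had peaks only in the first replicate of each brain region, and Slc5a7 had no peak at all. Of all genes, 67.5% had a peak in 4 libraries, 2.40% in 2 libraries and 21.7% in none. The libraries without a Slc18a3 or Slc17a8 peak were those with fewer cut sites and fewer peaks in each brain region, and the part of depth in this was not tested.

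Ache (ENSMUSG00000023328, chr5:137287519-137294466, plus strand) measured 124 and 161 CPM in cortex (replicates 1 and 2) and 107 and 155 CPM in hippocampus. The ranges of the brain regions overlapped, with the lowest value in hippocampus and the highest in cortex. Per kb of its 8.95 kb window the level was 15.95 ± 2.92 CPM in cortex and 14.7 ± 3.82 in hippocampus (SD, n = 2), between percentile 99.0 and 99.2 of all genes. Its 1 to 3 peaks per library covered 5.32 to 8.73 kb, and joined to the single region chr5:137286429-137295371, the sole region of these genes that held a peak of every library. That region spans coding exons and untranslated exons of Ache and of the neighbouring gene Ufsp1. Peaks overlapping the window of Ufsp1 carried between 40.4% and 100% of the Ache cut sites, so those could not be assigned to either gene alone.

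**Figure D1:**
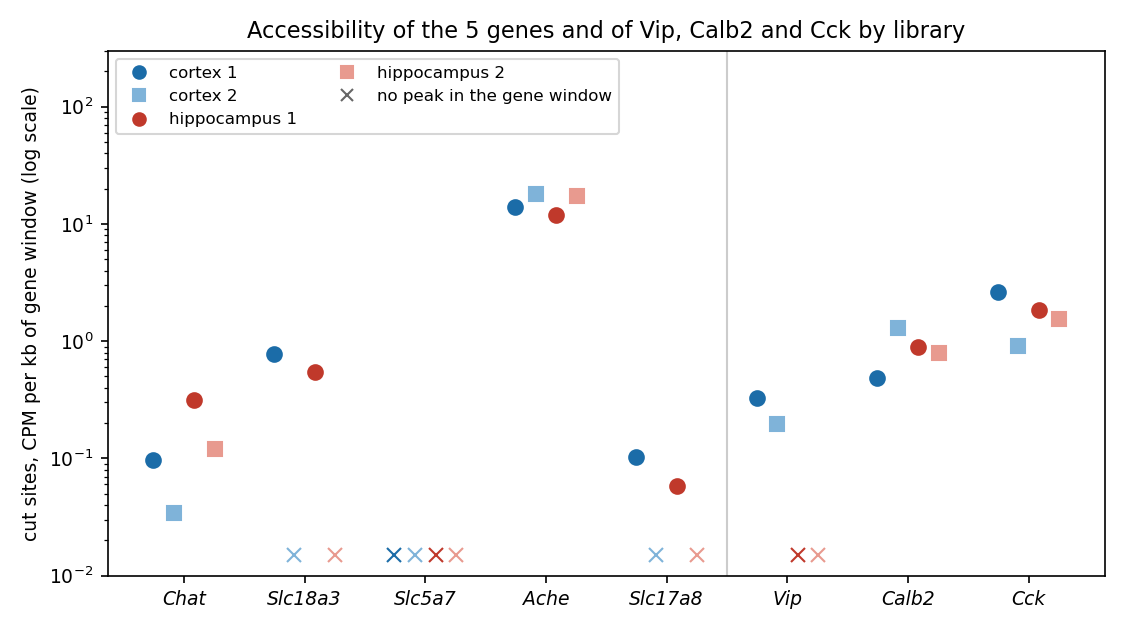
Accessibility of the 5 genes and of Vip, Calb2 and Cck in each library, as cut sites in CPM per kb of gene window on a log axis, with circles for replicate 1, squares for replicate 2, blue for cortex and red for hippocampus, and crosses for a gene without a peak. Ache lies between 11.95 and 18.02 CPM per kb, Chat between 0.0345 and 0.317, and Slc5a7 has crosses only.

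Chat (ENSMUSG00000021919, chr14:32408203-32465989, minus strand) measured 5.75 CPM in cortex replicate 1 and 2.06 in cortex replicate 2, against 19.0 in hippocampus replicate 1 and 7.20 in hippocampus replicate 2. Both hippocampus libraries were above both cortex libraries, as they were for 10.7% of the 16326 genes tested. The mean was 3.90 ± 2.61 CPM in cortex and 13.1 ± 8.32 in hippocampus (SD, n = 2), so that the spread between the hippocampus libraries was nearly as large as the difference of the means. Per kb of its 59.8 kb window Chat was low, at percentile 28.5 to 35.9 of all genes.

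The Chat cut sites lay in 8 separate regions, and which of them were called as peaks differed between libraries. An intronic region about 26 kb downstream of the start, chr14:32439672-32440204, was a peak in 3 libraries, at 2.34 CPM in the first cortex replicate and 5.01 and 4.63 CPM in hippocampus. A second intronic region about 41 kb downstream, chr14:32424464-32425725, was a peak in the hippocampus libraries alone, at 6.09 and 2.57 CPM. A further one, chr14:32461532-32461794, was the sole Chat peak of cortex replicate 2, at 2.06 CPM, and measured 1.49 CPM in hippocampus replicate 1. The remaining regions were peaks in a single library. The largest were chr14:32458977-32459726, an intronic peak at 3.45 CPM in hippocampus replicate 1, the peak over the Slc18a3 start at 3.41 CPM in cortex replicate 1, and chr14:32466142-32466637, upstream of the Chat start, at 2.42 CPM in hippocampus replicate 1. No region was a peak of all 4 libraries, so Chat had no value over regions common to them.

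Slc18a3 (ENSMUSG00000100241, chr14:32462438-32464850, minus strand) measured 3.41 CPM in cortex replicate 1 and 2.42 in hippocampus replicate 1, and the second replicates had no peak. The cortex peak, chr14:32464443-32465022, spanned the start of Slc18a3, from 172 bases upstream to 407 bases downstream, over untranslated sequence of Slc18a3 and an intron of Chat. The hippocampus peak was the one upstream of the Chat start, more than 1 kb from the Slc18a3 start. In both libraries all Slc18a3 cut sites lay in a peak that the Chat window also held, and they made up 59.3% of the Chat cut sites in cortex replicate 1 and 12.7% in hippocampus replicate 1. The values of these 2 genes are therefore not independent.

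Slc17a8 (ENSMUSG00000019935, chr10:89574020-89621253, minus strand) measured 5.06 CPM in cortex replicate 1 and 2.86 in hippocampus replicate 1. In cortex replicate 1 the cut sites were shared between a peak over the gene start, chr10:89621040-89621526, at 2.58 CPM, and a peak at chr10:89599301-89599736, at 2.48 CPM, which overlapped an untranslated exon. In hippocampus replicate 1 nearly all lay elsewhere, in an intronic peak about 36 kb downstream of the start, chr10:89584610-89585035, at 2.78 CPM. The brain regions thus had no Slc17a8 peak in common. Per kb of its 49.2 kb window the gene was at percentile 28.7 and 25.2 in these libraries. Slc5a7 (ENSMUSG00000023945) had 0 peaks in its 27.4 kb window in 4 libraries, as had 4767 genes, and a level of 0 within peaks sets no upper limit on its accessibility.

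The first comparison asked whether the genes differ between brain regions. None did by the test: of the 5 genes, 4 entered the edgeR quasi-likelihood fit and 0 passed an adjusted p of 0.05, where 0.123% of the 16326 genes tested passed (12 higher in hippocampus and 8 lower). At an unadjusted p under 0.05 the fit had 501 genes. The Chat estimate was the largest of the 4, a log2 fold change of 1.74 ± 1.24 (SE) in hippocampus over cortex, with an edgeR p of 0.159 and an adjusted p of 1.00. DESeq2 gave 1.74 ± 0.79 with an adjusted p of 0.684. Ache had a log2 fold change of -0.12 ± 0.29. Slc17a8, at -0.82 ± 4.42, and Slc18a3, at -0.50 ± 5.16, had errors several times their estimates, since a library of each brain region had no peak. The median over all genes was -0.10.

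The call on Chat depended on cortex replicate 1, and its estimate changed sign with peak length as an offset. Without cortex replicate 1 it was 2.66 ± 0.76 and passed the threshold. In that fit cortex was replicate 2 alone, the library with the fewest peaks, and most genes called were higher in hippocampus. Leaving out each other library in turn gave 1.19, 0.88 and 2.28, none past the threshold. Peaks covered 3.37 kb of the Chat window in hippocampus replicate 1 and 0.777 kb in hippocampus replicate 2, against 0.991 and 0.144 kb in the cortex libraries. Per kb of peak the Chat level was 5.80, 14.3, 5.64 and 9.26 CPM in the order cortex replicates 1 and 2 and hippocampus replicates 1 and 2, and there the brain regions overlapped. With the covered length as an offset the log2 fold change was -0.41 ± 0.94, in a fit where the median of the 14802 genes tested was -0.55, so that Chat lay above the median (percentile 77.4). The summed level of oligodendrocyte lineage markers was 8.17 and 9.04 CPM per kb in hippocampus against 6.50 and 4.27 in cortex. The markers did not all go this way: 4 of 7 had estimates above 0, and 1 of 7 passed. The part of peak length and of such cells in the Chat values was not tested.

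**Figure D2:**
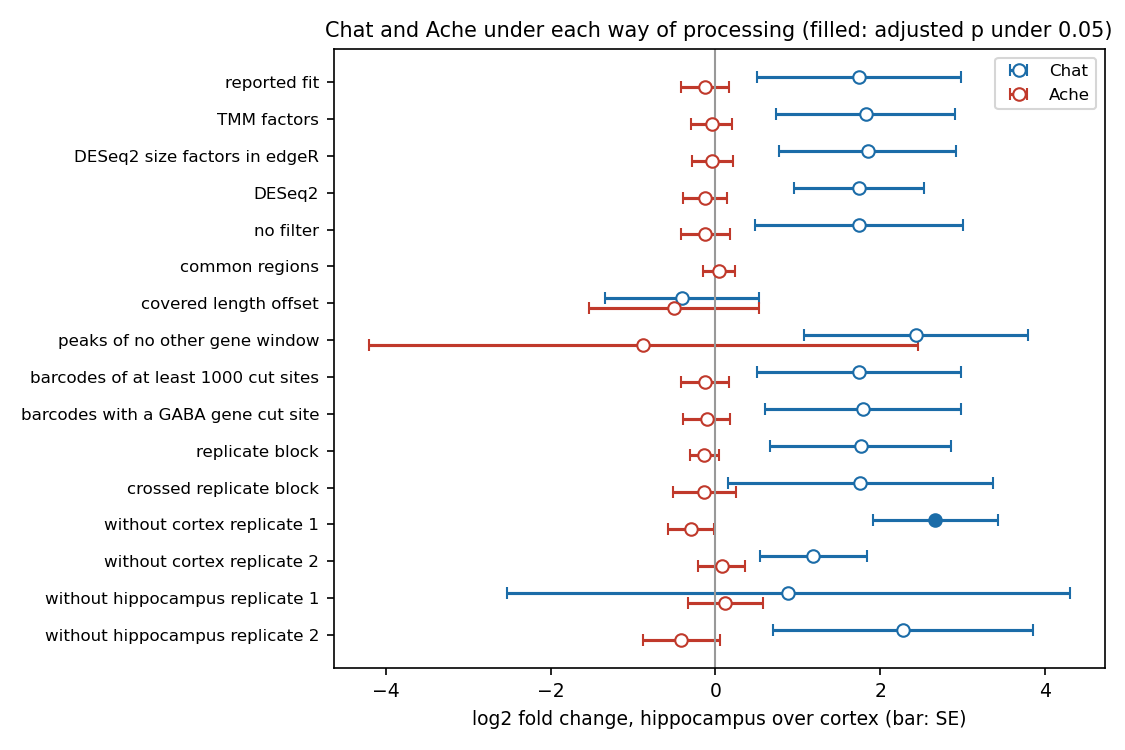
Log2 fold change in hippocampus over cortex for Chat (blue) and Ache (red) under each way of processing, with bars for the SE and filled points for an adjusted p under 0.05. The single filled point is Chat without cortex replicate 1, at 2.66, and Chat with covered length as an offset is at -0.41, where the median of all genes is -0.55.

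At the gene start, within 2 kb on either side, 6 of 14220 genes passed (0.0422%), and 0 of the members tested did. Ache had a log2 fold change of 0.31 ± 0.48, where the median of all genes was -0.21. With TMM scaling it was 0.58 ± 0.29, where that median was 0.01. In hippocampus replicate 1 a single peak held all 7741 Ache cut sites, so the start value there was the whole-gene value. The start held 8689 of 14575 in cortex replicate 1, 2704 of 5160 in cortex replicate 2 and 4266 of 7441 in hippocampus replicate 2. The part of this in the Ache estimate was not tested. Chat and Slc18a3 had the same start cut sites, in the first replicates alone, and the same estimate of -0.50 ± 5.35. Slc17a8 was not tested there.

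The share of nuclei with at least 1 cut site in the gene, called open nuclei here, was compared after thinning every nucleus to 3000 cut sites, which left out 0 and 414 nuclei in cortex (replicates 1 and 2) and 381 and 67 in hippocampus. In cortex Chat was open in 1.66% (exact 95% interval 1.18 to 2.26) and 0.530% of nuclei, and in hippocampus in 4.74% and 2.02%. The brain regions did not overlap, and the exact permutation test over libraries gave its smallest possible p, 0.333, so that no difference could pass 0.05 with 2 libraries a side. Ache was open in 32.19% and 31.59% of nuclei in cortex and in 23.48% and 31.57% in hippocampus. Its brain regions did not overlap either, though only by 31.59% against 31.57%, with hippocampus lower and the same exact permutation p of 0.333. How many of all genes separate in this way was not computed for open shares. Slc18a3 was open in 1.19% of nuclei in cortex replicate 1 and 0.674% in hippocampus replicate 1, and Slc17a8 in 1.57% and 0.674%. Thinned to 5000 cut sites, the brain regions overlapped for Chat (exact permutation p 0.667). They overlapped for Ache too, at 42.46% and 42.40% in cortex and 34.61% and 44.34% in hippocampus. At full depth Chat was open in 13.5%, 1.22%, 12.4% and 6.31% of nuclei, and there the brain regions overlapped, with depth differing between the libraries.

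The second question was whether the genes were accessible in the nuclei that had cut sites in Vip, Calb2 or Cck, the partner genes. Vip itself was a limit. It had a peak in the cortex libraries alone, at 3.38 and 2.03 CPM, and no peak in either hippocampus library, so nothing could be measured there about Vip and these genes, and a difference between brain regions could not be fitted. Calb2 measured 15.7, 42.6, 29.0 and 25.8 CPM and Cck 20.6, 7.09, 14.5 and 12.2 CPM across the libraries.

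In nuclei thinned to 3000 cut sites the overlap was too sparse to measure. Vip was open in 21 nuclei of cortex replicate 1 and 24 of cortex replicate 2, of which 1 and 0 were open for Chat. In the edgeR fit of open against closed nuclei with library as a block, 1 of 15009 genes passed (0.00666%), Glyctk, a glycerate kinase gene, at a log2 fold change of 2.39 ± 0.48 (adjusted p 0.0103). The next higher genes were Kremen1, at 1.86 ± 0.43, and Nr2f2, a transcription factor of caudally derived interneurons, at 2.05 ± 0.50, and neither passed. No member passed, with Slc18a3 at 1.92 ± 2.67, Chat at 0.97 ± 2.41 and Ache at 0.56 ± 0.34. On simulated counts this fit found 29 of 100 genes changed 4-fold and 3 of 100 changed 2-fold.

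At full depth, in cortex replicate 1, Slc18a3 accessibility was higher in nuclei open at Vip than in the others. Of the 201 Vip-open nuclei, 42 had a cut site in the peak over the Slc18a3 start, 20.9% (exact 95% interval 15.5 to 27.2), against 151 of 2154 Vip-closed nuclei, 7.01% (5.97 to 8.17). The peak measured 9.95 CPM in Vip-open and 2.76 CPM in Vip-closed nuclei, a ratio of 3.60 (2.85 to 4.51). Median depths were nearly equal, 47400 and 47213.5 cut sites. The intervals cover counting error only, and cut sites come largely in pairs from the ends of a fragment, so they are too narrow for a level. The ratio was 3.75 without the deepest 5% of nuclei and 3.73 when Vip had to have at least 3 cut sites. The latter left 31 Vip-open nuclei, 10 of them with a cut site in the peak. Both ratios reuse the same nuclei and are no separate support.

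The other partner and comparison genes did not show a ratio of that size at the same peak. It was 1.35 (1.10 to 1.65) for Calb2, 0.873 (0.708 to 1.07) for Cck and 0.860 (0.695 to 1.06) for Lamp5, a marker of neurogliaform cells. It lay below 1 for Pvalb, at 0.453 (0.370 to 0.554), and for Sst, at 0.669 (0.532 to 0.836). These genes mark the major interneuron classes that are not known to use acetylcholine. At full depth, however, Pvalb was open in 58.1% of nuclei of this library, Cck in 34.4%, Lamp5 in 32.6%, Calb2 in 31.1% and Sst in 30.9%. These sets of open nuclei overlapped and are not cell classes. Pvalb-open nuclei had a cut site in the peak over the Slc18a3 start in 6.65% of cases, at a median depth of 54047 cut sites. The share was 10.3% (8.51 to 12.4) in Pvalb-closed nuclei, at a median depth of 39573. The ratio of the Chat intron peak at 26 kb for Vip was 1.34 (0.895 to 1.94), and that of Ache was 1.08 (1.02 to 1.14), with 92.5% of Vip-open and 87.7% of Vip-closed nuclei open.

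**Figure D3:**
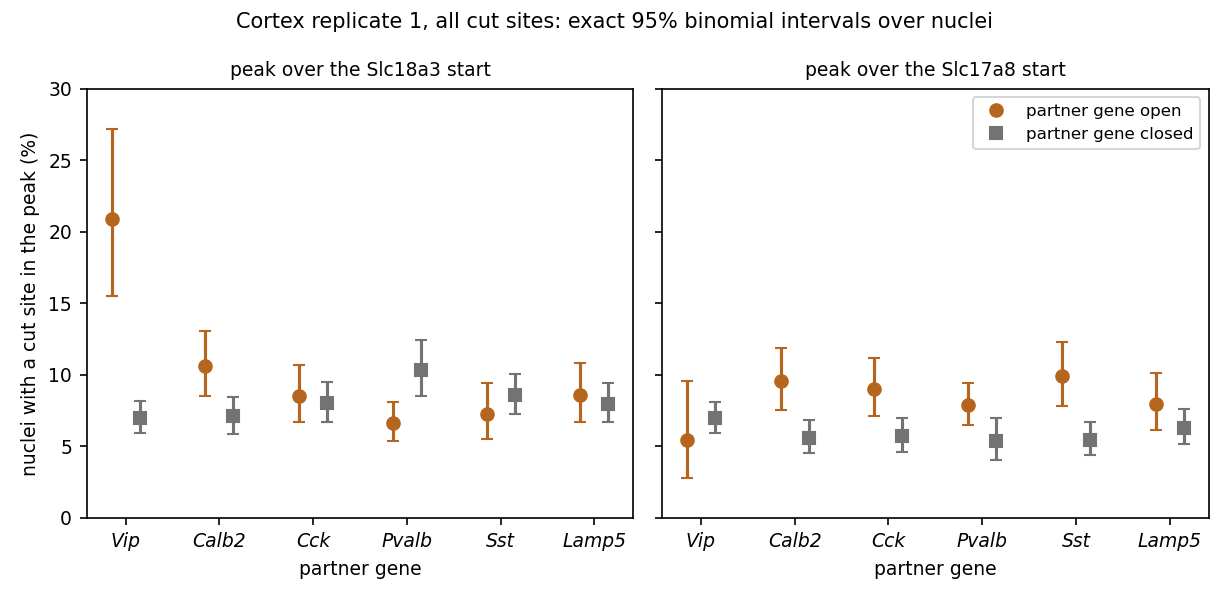
Share of nuclei of cortex replicate 1 with a cut site in the peak over the Slc18a3 start (left) and the Slc17a8 start (right), for nuclei open (circles) and closed (squares) at each partner gene, with exact 95% binomial intervals. On the left the Vip-open share of 20.9% lies above the Vip-closed share of 7.01%, and on the right the Vip-open share is 5.47% against 6.96%.

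The joint state of the partner genes divided the same nuclei and cut sites of this library further, so it is no separate support for the Vip difference. Slc18a3 measured 7.13 to 13.8 CPM in the 4 combinations with Vip open, whichever state Calb2 and Cck had, and 2.23 to 3.504 CPM in the 4 with Vip closed. The highest value was in the 43 nuclei open at Vip and Calb2 and closed at Cck. Chat, which holds the same peak, measured 9.98 to 17.6 CPM with Vip open and 4.39 to 5.47 CPM with Vip closed. Ache measured 117 to 143 and 119 to 127 CPM, which overlap.

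**Figure D4:**
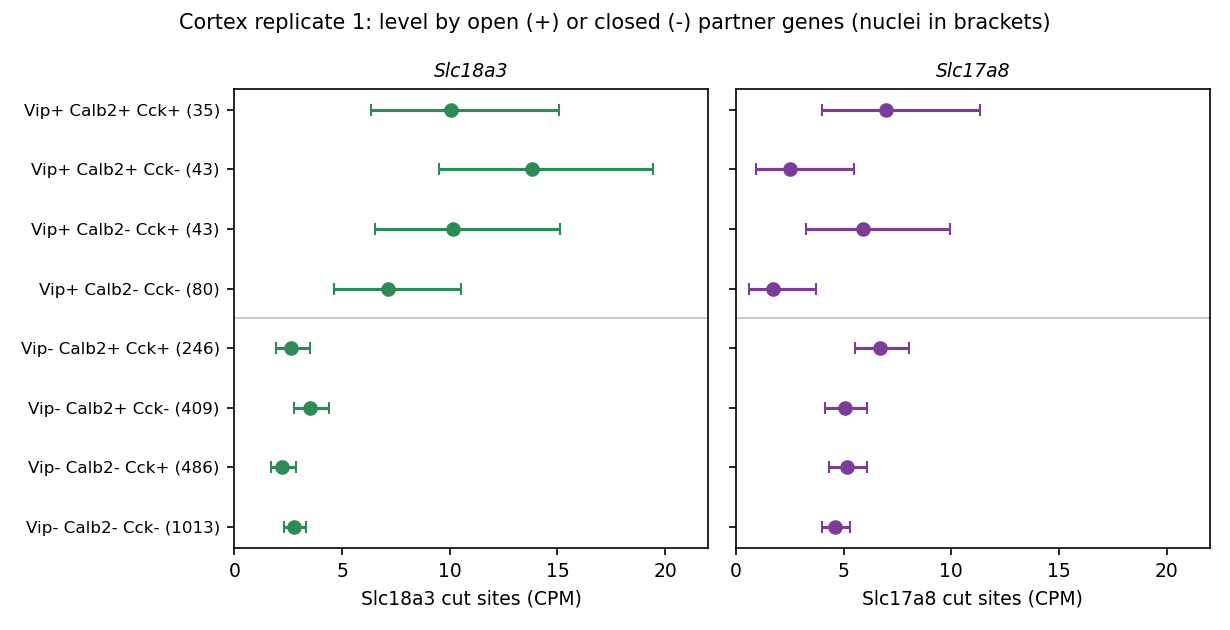
Slc18a3 (left) and Slc17a8 (right) cut sites in CPM in cortex replicate 1 for the 8 combinations of Vip, Calb2 and Cck open (+) or closed (-), with exact Poisson 95% intervals and the number of nuclei in brackets. The 4 Slc18a3 values with Vip open lie above the 4 with Vip closed, at 7.13 to 13.8 against 2.23 to 3.504 CPM, while Slc17a8 shows no such split.

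No second library could repeat the Slc18a3 measurement, because cortex replicate 2 had no peak there. Its sole Chat peak, the intronic chr14:32461532-32461794, measured 13.0 CPM in 57 Vip-open nuclei and 1.90 in 4134 closed nuclei, a ratio of 6.84 (2.42 to 15.8) that rests on 6 cut sites in 2 nuclei. In the edgeR fit over both cortex libraries at full depth, 115 of 16399 genes passed (0.701%) and no member did. Chat was at 1.71 ± 0.51 with a p of 0.000747 and an edgeR adjusted p of 0.0822, and Slc18a3 at 1.85 ± 0.63 with an adjusted p of 0.217. Ache was at 0.06 ± 0.12 and Slc17a8 at -0.38 ± 0.64.

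Pvalb, Sst and Lamp5 served as comparison genes, each in an edgeR fit of the same kind. In thinned nuclei 37 of 15568 genes passed for Pvalb (0.238%), 52 of 15460 for Sst (0.336%) and 4 of 15669 for Lamp5 (0.0255%), and of the members Chat and Ache were tested and did not pass. At full depth Slc18a3 passed for Pvalb, where it was lower in open nuclei, at -1.04 ± 0.24 (edgeR adjusted p 0.00321), in a fit that called 15.6% of 16274 genes. Both libraries with a Slc18a3 peak had the lower value in Pvalb-open nuclei, at 2.44 against 5.38 CPM in cortex replicate 1 and 1.498 against 2.68 CPM in hippocampus replicate 1, at different peaks. Pvalb-open nuclei were deeper than Pvalb-closed ones, at a median of 54047 against 39573 cut sites per nucleus in cortex replicate 1 and 16612 against 11865 in hippocampus replicate 1, and the part of depth was not tested. Slc18a3 was not tested in the thinned fit. No other member passed for Pvalb, and none for Sst or Lamp5, where 8.93% and 1.33% of genes did.

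The full-depth Vip fit also held marker genes. Lhx6 and Sox6, transcription factors of medially derived Pvalb and Sst interneurons, were lower in Vip-open nuclei, at -0.74 ± 0.17 and -0.59 ± 0.12 (edgeR adjusted p 0.00352 and 0.000385). Of the Pvalb and Sst list, 2 of 5 genes passed, both lower, and the list median was -0.44, against -0.02 over all genes. The 4 other genes of the Vip list, Calb2, Htr3a, Crh and Cxcl14, had estimates above 0 with a median of 0.82, and 0 passed. Prox1, a transcription factor of caudally derived interneurons named here after its value was seen, was higher at 0.83 ± 0.19 (adjusted p 0.00325). Of 5 cholinergic neuron markers tested, 0 passed and the median was -0.14. Of 3 astrocyte markers, Aldh1l1 was higher, at 0.60 ± 0.14 (adjusted p 0.00472), while Gja1 and Slc1a3 were at -0.24 ± 0.94 and -0.18 ± 0.31, and the part of such cells in the Vip-open nuclei was not tested.

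Calb2 and Cck had peaks in every library, and neither Chat nor Ache, the members that entered the thinned fits, passed the threshold for either gene. In the thinned edgeR fits 1 of 15687 genes passed for Calb2 (0.00637%) and 1 of 15550 for Cck (0.00643%). These were Prr29, at -1.71 ± 0.37, and Kcnj10, a potassium channel gene of glia, at -1.28 ± 0.26, named after their values were seen and both lower in open nuclei. Chat was at 0.30 ± 0.33 for Calb2 and -0.12 ± 0.51 for Cck, and Ache at -0.06 ± 0.09 and -0.05 ± 0.13. The genes with the smallest p that were higher in open nuclei were Mak, Rgr and Cacnb2 for Calb2 and Cabp1, Ppargc1b and Vwa5b2 for Cck, none past the threshold. The difference between brain regions itself was tested as an interaction, and 5 genes passed for Calb2 (0.0319%) and 0 for Cck (0%), none of them a member. The 5, named after their values were seen, were Gm49396, Igflr1, Psenen and U2af1l4, at 1.55 to 1.56, and Ube2b, at -1.23. Gm49396 and Igflr1 had identical estimates, as had Psenen and U2af1l4, so the 5 are not separate results. Chat was at -0.22 ± 0.84 in the interaction for Calb2 and 0.43 ± 1.31 in that for Cck. At full depth 70 of 16276 genes passed for Calb2 (0.43%), with Chat at 0.12 ± 0.11 and Slc18a3 at 0.21 ± 0.21, and the interactions called 0 genes for Calb2 (0%) and 1 for Cck (0.00615%), Stk32b, again no member.

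Slc17a8 with Cck was the remaining pair of interest, since Cck basket cells are known for VGLUT3. At full depth Slc17a8 measured 5.84 CPM in Cck-open and 4.53 CPM in Cck-closed nuclei of cortex replicate 1, a ratio of 1.29 (1.09 to 1.52). In hippocampus replicate 1 it measured 4.195 and 2.66 CPM, a ratio of 1.58 (1.08 to 2.24). Both ratios were above 1, at different peaks. The edgeR fit at full depth, in which 159 of 16269 genes passed (0.977%), gave a log2 fold change of 0.47 ± 0.23 with an adjusted p of 0.446. In thinned nuclei 1 nucleus of cortex replicate 1 and 2 of hippocampus replicate 1 were open for both genes.

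Slc17a8 ratios differed between the libraries for other genes. In hippocampus replicate 1 the ratio of Slc17a8 was 1.65 (1.202 to 2.24) for Lamp5, and below 1 for Calb2, at 0.671 (0.446 to 0.983), Pvalb, at 0.667 (0.445 to 0.972), and Sst, at 0.686 (0.368 to 1.18). In cortex replicate 1 the ratio of Slc17a8 was 1.47 (1.24 to 1.73) for Sst, 1.28 (1.07 to 1.54) for Pvalb, 1.203 (1.02 to 1.42) for Calb2, 0.829 (0.696 to 0.985) for Lamp5 and 0.770 (0.549 to 1.05) for Vip. Of the genes other than Cck that had a ratio in both libraries, Calb2, Pvalb, Sst and Lamp5, each lay on opposite sides of 1 in them. Cck-open nuclei were deeper than Cck-closed nuclei, with medians of 54273.5 and 43857 cut sites in cortex replicate 1 and 16280.5 and 12257.5 in hippocampus replicate 1. Genes of the oligodendrocyte lineage were lower in Cck-open nuclei in the full-depth fit, 3 of 7 past the threshold, with a list median of -0.32 against -0.01 over all genes. The part of depth and of these cells in the Slc17a8 ratios was not tested.

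The other genes of the acetylcholine and glutamate pathways were read from the same fits. Between brain regions 0 of 13 nicotinic receptor genes, 0 of 5 muscarinic receptor genes, 0 of 13 genes of choline and acetylcholine handling, 0 of 7 genes of vesicular loading and transmitter synthesis and 0 of 5 cholinergic transcription factor genes passed. Their median log2 fold changes were 0.22, -0.05, -0.02, 0.23 and 0.02, against -0.10 over all genes. Peaks in every library were found for 10 of 13 nicotinic receptor genes, 4 of 5 muscarinic receptor genes, 12 of 13 genes of choline and acetylcholine handling, 7 of 8 of vesicular loading and synthesis and 3 of 9 cholinergic transcription factor genes, beside 67.5% of all genes. Of the other vesicular glutamate transporters, Slc17a7 (VGLUT1) had peaks in 4 libraries at 16.5 to 33.4 CPM, and Slc17a6 (VGLUT2) in hippocampus replicate 1 alone at 2.64 CPM. The GABA genes Gad1 and Slc32a1 measured 188 to 260 and 86.3 to 138 CPM. In the thinned fits for Vip, Calb2 and Cck 0 genes of these lists passed. At full depth 2 did: Lhx6, given above, was lower in Vip-open nuclei, and Lynx1, a membrane-anchored modulator of nicotinic receptors, was higher in Cck-open nuclei at 0.20 ± 0.05 (edgeR adjusted p 0.0324). The comparison genes had more such calls. In thinned Lamp5-open nuclei Slc44a1, a choline transporter-like gene, was lower at -0.48 ± 0.10 (edgeR adjusted p 0.0223), and at -0.10 ± 0.04 at full depth, where it did not pass. It stood beside Pik3r1 and Gm10277, which were lower, and Grin2a, which was higher, named after their values were seen.

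At full depth, where nuclei open at Pvalb, Sst or Lamp5 had a higher median depth than closed nuclei in every library, receptor genes passed in both directions. Of all genes tested, 15.6% passed for Pvalb, 8.93% for Sst and 1.33% for Lamp5 in these fits, so such calls were common outside these lists too. In Pvalb-open nuclei 4 receptor genes were higher, the muscarinic Chrm2, at 0.38 ± 0.05, and Chrm4, at 0.33 ± 0.07, and the nicotinic Chrnb4, at 0.49 ± 0.12, and Chrnb2, at 0.27 ± 0.06, and Chrna7 was lower at -0.20 ± 0.05. Colq, the collagen tail of acetylcholinesterase, at 0.55 ± 0.10, and Lynx1, at 0.32 ± 0.04, were higher there, and Acly, at -0.16 ± 0.05, and Ly6h, at -0.20 ± 0.06, lower. In Sst-open nuclei Chrnb3, at 0.43 ± 0.11, Chrna2, at 0.41 ± 0.13, and Chrm3, at 0.18 ± 0.05, were higher, and Chrnb4, at -0.91 ± 0.19, and Gad1, at -0.19 ± 0.04, lower. Lhx6 was higher in both, at 0.22 ± 0.05 for Pvalb and 0.35 ± 0.05 for Sst. In Lamp5-open nuclei Gad1, at 0.14 ± 0.03, and Gad2, at 0.16 ± 0.04, were higher.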

How the data were processed

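Single-nucleus ATAC-seq was deposited for 2 cortex and 2 hippocampus libraries. Per the submitters' processing notes, Cell Ranger ATAC 1.2.0 and GRCm38 (mm10) were used; peak settings are not given in the sources used here. The authors deposited, per library, raw counts of cut sites per peak and barcode, with peak positions, without normalization. The deposited transcription factor matrices were not used. Peaks were called per library.

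Peaks overlapping a gene body or 2 kb upstream by at least 1 bp (GENCODE M21, 21938 protein-coding genes) were summed per gene. The test between libraries was the robust quasi-likelihood test of edgeR 4.0.16 (filterByExpr, library totals, Benjamini-Hochberg threshold 0.05, two-sided) in R 4.3.3, with DESeq2 1.42.0 as an alternative. For partner genes (Vip, Calb2, Cck; Pvalb, Sst and Lamp5 for comparison), nuclei were thinned to 3000 cut sites, summed as open (at least 1 cut site) or closed per library and fitted with library as a block, leaving out genes sharing a peak with the partner. Nuclei are not replicates. Intervals are 95% (Clopper-Pearson or Poisson) and cover counting error only. Doublets were not called. On simulated data, the fit between brain regions found 60 of 100 genes changed 4-fold and 14 of 100 changed 2-fold, with 15 false calls. Sequences were read from the RefSeq GRCm38 genome.

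The genes, lists and motifs were chosen with earlier results of these data known. Named were the 5 genes, the partner genes, list genes past the threshold (at most 3 per direction), the 3 genes most correlated with each member, and the 3 with the smallest p higher in each set of open nuclei. Full-depth values per peak, a fit on Chat-open nuclei and a crossed pairing were chosen after seeing the data.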

Additional observations from a re-analysis of the deposited data

How the results depend on the processing

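Of 290 member fold changes under alternatives 2 passed the threshold, Chat between brain regions without cortex replicate 1 (2.66) and Slc18a3 by Pvalb without thinning (-1.04). Of those with a value in the reported fits, 204 kept sign and side of the threshold and 37 changed sign; 48 had no such value. The counts of all genes called, 20 between brain regions and 6 at gene starts, moved far more. Between brain regions they were 1 with TMM factors, 1 with DESeq2 size factors, 105 with DESeq2, 2 over common regions, 0 with covered length, 3 over peaks of no other gene window, 11 over barcodes with a GABA gene cut site, and 6 to 725 leaving out a library. At gene starts they were 2 with TMM factors and 4 to 396 leaving out a library. With the replicate number as a block they were 0 for both, and Chat was at 1.76; same-numbered libraries deviated together at r = 0.175 over genes, with 2 pairs too few to call them paired, and the crossed pairing called 14.

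In the partner fits, no thinning gave 115 calls for Vip, 70 for Calb2 and 159 for Cck against 1 each, and 0 and 1 for the interactions of Calb2 and Cck against 5 and 0. Thinning to 5000 gave 0 for Calb2, 4 for Cck and 0 for the Calb2 interaction. TMM factors gave 3 for Vip and 0 for Calb2, DESeq2 3, 0 and 0 for Vip, Calb2 and Cck, and 1 for Chat. Without the deepest nuclei, or in nuclei with a GABA gene cut site, Calb2 and Cck had 0. Calb2 had 0 with its gene start window, at 3 cut sites and without any library (0 to 0), and Cck 0 to 1 leaving out a library. For the comparison genes Pvalb, Sst and Lamp5 (37, 52 and 4 calls), thinning to 5000 gave 497, 335 and 29, no thinning 2545, 1453 and 216, and GABA nuclei 18, 4 and 2. Leaving out a library gave 3 to 38, 1 to 25 and 0 to 16. Pvalb and Lamp5 had 0 with the start window and at 3 cut sites, DESeq2 gave 22 for Sst and 1 for Lamp5, and Lamp5 had 2 without the deepest nuclei. Their interactions had 0, and 49 for Pvalb and 49 for Sst without thinning. For Vip and Cck at 3 cut sites, for Sst at 3 cut sites, and for Vip without a cortex library, too few open nuclei were left for a fit.

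Some estimates changed sign. Ache between brain regions was 0.043 over common regions and -0.42 to 0.12 leaving out a library, and Chat -0.41 with covered length, where the median of all genes was -0.55. Leaving out a library gave -10.38 to 9.19 for Slc17a8 and -9.81 to 8.94 for Slc18a3, and -9.81 to 8.94 for Chat and Slc18a3 at the gene start. Fitted values of that size reflect a group without a peak and bound nothing. Ache by Calb2 was 0.089 thinned to 5000, 0.0048 without thinning, 0.014 in GABA nuclei, 0.022 with the start window and -0.11 to 0.060 leaving out a library. Ache by Cck was 0.036 without thinning, Chat by Cck -0.53 to 0.41 leaving out a library, its interaction -0.23 thinned to 5000, and Ache in Chat-open nuclei 0.11 thinned to 5000 and 0.045 without thinning. For Pvalb, Ache was 0.0097 thinned to 5000, 0.13 with the start window and -0.13 to 0.089 leaving out a library, and Chat 0.31 at 3 cut sites. For Sst, Chat was 0.18 and the Ache interaction 0.037 thinned to 5000. For Lamp5, Chat was -0.044 thinned to 5000, -0.13 without thinning, -9.43 at 3 cut sites, -0.58 with the start window and -0.34 to 0.20 leaving out a library, Ache was 0.0068 without thinning, and the interactions without thinning were -0.081 for Ache and -0.11 for Chat. Of the joint open shares over the product of shares, 3 moved without thinning, to 1.13 and 1.18 for Ache with Calb2 in cortex replicate 2 and hippocampus replicate 1, and to 0.769 for Slc18a3 with Cck in hippocampus replicate 1. The cause was not tested.

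Slc18a3 and Slc17a8 rest on 1 library per brain region, and the Vip overlap at the Slc18a3 start on 1 library and 42 nuclei. Peaks called per library tie each level to the length called.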

Other observations

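Nuclei with a Chat cut site were compared with the rest in a fit chosen after seeing the data. Of 15517 genes tested in thinned nuclei edgeR called 0, DESeq2 called 1 (Mmp19, named after its value was seen), and at full depth edgeR called 0 of 16236. Ache, the enzyme that breaks acetylcholine down, was at -0.39 ± 0.18 in Chat-open nuclei (edgeR adjusted p 1.00), with 39, 20, 246 and 63 open nuclei in the order cortex replicates 1 and 2 and hippocampus replicates 1 and 2. On simulated counts this fit found 87 of 100 genes changed 4-fold.

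As a description across thinned nuclei, the genes whose cut sites correlated most with Chat were Cc2d2b, Ankrd2 and Dnah7a, at a mean Pearson r over 4 libraries of 0.0433, 0.0431 and 0.0427 among 14770 genes. For Ache they were Cyp27b1, Adra2c and Elfn1, at 0.0471, 0.0359 and 0.0352. The nuclei of a library share depth and peak calls, and correlations this weak in sparse counts are no finding. Slc18a3, Slc17a8 and Slc5a7 had no such mean, since each lacked a peak in at least 2 libraries.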
